A study of Mus musculus with 24 samples.

Results

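The p53 target genes are a list of 32 genes, which holds Trp53, the gene of the tumour suppressor p53 itself, and genes whose transcription p53 is known to raise. The list goes by gene name and uses no threshold on these arrays, though it was drawn up with earlier results of these data known. Of the 32 genes, 28 had a probe set of their own among the 22180 genes measured. Trp53 and Bax had no probe set listed under their symbol, and their RNA was not analysed here. Gadd45a and Ddb2 are listed only on a probe set shared with another gene, so that no level is given for them. RNA was measured on 24 Affymetrix arrays of naive CD4 T cells of the mouse, enriched with magnets and then sorted by flow cytometry. The cells came from mice labelled TRIM28KO (KO) and from wild-type littermates (WT). They were taken at 0 h, or after 4, 24 or 72 h with plate-bound anti-CD3 and soluble anti-CD28, which engage the T cell receptor and its costimulatory partner. Genotype and time give 8 groups of 3 arrays. The allele, the promoter or Cre line behind the knockout, the age of the mice, and whether each array stands for a separate animal are not stated in the sources used here. A p-value here therefore weighs a change against the spread of these arrays, which may be technical.

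The protein p53 is held low in resting cells by MDM2, a ubiquitin ligase that marks it for destruction, and by the related MDM4. When DNA is damaged or growth signals are abnormal, p53 accumulates, binds DNA elements beside its target genes and raises genes that stop the cell cycle, start cell death, repair DNA and restrain p53 in turn. Many of these genes also answer to other transcription factors, so that their RNA is no direct reading of p53. TRIM28, also called KAP1, is a corepressor that is brought to DNA by zinc finger proteins and that can bind MDM2. In T cells, p53 is known to restrain proliferation, and its targets Cdkn1a and Fas act in the arrest and the removal of activated cells.

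Every level below is a log2 value as deposited, on which 1 unit is a factor of 2, and changes are differences of such values with the standard error (SE) of the fit. An adjusted p below 0.05 over the 22180 genes in limma counts as past the threshold. Array medians lay between 3.59 and 3.76. The Trim28 level was 7.71 to 7.84 in the WT arrays at 0 h and 4.93 to 5.44 in the KO arrays. At 24 h, where the difference was widest, it was 9.09, 9.21 and 9.26 in WT against 5.66, 5.63 and 5.53 in KO. The KO arrays were far below the WT arrays at every time, with changes of -2.62 at 0 h, -3.10 at 4 h, -3.58 at 24 h and -3.09 at 72 h, in accord with the labels. Summed levels of 6 CD4 T cell markers (Cd4, the 3 CD3 chains, Cd28 and Cd5) lay at 13.52 to 13.62 in WT and 13.44 to 13.48 in KO at 0 h, and at 12.96 in the WT arrays and 13.06 to 13.19 in KO at 72 h, without overlap at either time. Of these 6 genes 1 was past the threshold and lower in KO at 0 h, where 0.577% of all genes were. The 3 CD3 chains were past it and higher at 24 and at 72 h, beside 3.9% and 2.56% of all genes. The summed levels of B cell markers were higher on average in KO arrays, and those of myeloid markers at 0 and 4 h. At 0 h, 5 of the 8 myeloid markers were above WT and 3 below, and at 4 h all 8 were above.

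Promoter DNA could be searched for a p53 response element in 24 of the 32 genes, which have 33 windows in RefSeq (GRCm38.p6, 250 bases before to 50 after the start). The element searched for on both strands was the usual p53 consensus, a pair of decamers (3 purines, C, a pair of A or T, G, 3 pyrimidines) 0 to 13 bases apart, with each C and G of the core intact and at most 2 mismatches elsewhere. It occurred in 7 of the 33 windows (21.2%), against 1342 of 32851 windows of all genes (4.09%). With at most 1 mismatch these were 3 of 33 (9.09%) and 206 of 32851 (0.627%). The 7 genes are Bax, Ccng1, Cdkn1a, Gadd45a, Gtse1, Sesn1 and Trp73. A match is a description of letters, and since the genes were listed as p53 targets it is no independent result. The bases before the start are shown for the 3 of these genes that differed between genotypes, Cdkn1a, Ccng1 and Sesn1, 5′ to 3′ on the gene's strand, and for Gtse1, which rose steeply with stimulation, the element alone. Capitals mark the decamers.
Cdkn1a: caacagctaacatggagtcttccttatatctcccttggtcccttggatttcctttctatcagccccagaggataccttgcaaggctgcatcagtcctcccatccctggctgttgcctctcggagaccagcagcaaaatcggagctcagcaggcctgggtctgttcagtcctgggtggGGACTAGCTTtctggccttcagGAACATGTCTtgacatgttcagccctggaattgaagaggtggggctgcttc
Ccng1: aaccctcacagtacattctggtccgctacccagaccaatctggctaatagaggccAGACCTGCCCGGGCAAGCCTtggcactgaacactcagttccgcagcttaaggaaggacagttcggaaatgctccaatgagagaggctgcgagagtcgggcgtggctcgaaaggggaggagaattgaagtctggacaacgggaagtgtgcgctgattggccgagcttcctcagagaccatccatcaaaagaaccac
Sesn1: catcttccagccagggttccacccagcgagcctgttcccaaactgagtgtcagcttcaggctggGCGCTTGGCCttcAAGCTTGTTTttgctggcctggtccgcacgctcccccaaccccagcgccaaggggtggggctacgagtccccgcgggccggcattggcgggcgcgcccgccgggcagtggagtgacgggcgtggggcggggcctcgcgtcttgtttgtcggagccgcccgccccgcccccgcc
Gtse1: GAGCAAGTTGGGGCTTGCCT

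The Cdkn1a stretch lies at chr17:29090729-29090978 on the plus strand. Its element begins 73 bases before the start, has 0 mismatches and a spacer of 12 bases, and its downstream decamer is also the upstream one of an element with no spacer and 1 mismatch, 51 bases before the start. The Ccng1 stretch, chr11:40755287-40755536 on the minus strand, has an element with 1 mismatch and no spacer, 195 bases before the start. In Sesn1, at chr10:41887189-41887438 on the plus strand, the element has 2 mismatches and a spacer of 3 bases and begins 186 bases before the start. The Gtse1 element has 1 mismatch and no spacer and begins 1 base before the start, in a window at chr15:85859696-85859995. Cdkn1a, Sesn1, Gtse1 and Trp73 each have a further window, at another start, without a match, and the distances above are to the start of the window with the match. The Cdkn1a window without a match lies downstream, at chr17:29093519-29093818, and that of Sesn1 upstream, at chr10:41810324-41810623. No match says only that these letters are not in this window, and nothing about p53 was drawn from either.

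Between genotypes the p53 target genes moved in both directions, with most calls at 24 and 72 h. Named by size, Plk2 was far lower in KO at 24 and 72 h, Perp at 72 h, and Trp53inp1 was higher at 24 h. At 0 h, 0 of 28 were past the threshold in limma, where 2.34% of all genes were (1.76% higher, 0.577% lower), and 5 of 28 had an unadjusted p below 0.05. The share of all genes at that unadjusted cut is not given, so that counts at it, here and below, have no background beside them. At 4 h, Sesn1 and Apaf1 rose in KO and none fell, 2 of 28 against 4.13% of all genes (3.3% higher, 0.834% lower). At 24 h, 8 of 28 differed against 11.3% of all genes (3.9% higher, 7.38% lower): Ccng1, Fas, Sesn1, Trp53inp1 and Btg2 rose, and Plk2, Plk3 and Tnfrsf10b fell. At 72 h, 6 of 28 differed against 6.33% of all genes (2.56% higher, 3.78% lower), of which only Sesn1 rose and Cdkn1a, Fas, Perp, Plk2 and Rrm2b fell. The median change of the 28 genes was 0.0046 at 0 h, 0.021 at 4 h, -0.0079 at 24 h and -0.10 at 72 h, beside 0.0039, 0.0029, -0.053 and 0.0099 over all genes. Of the 28 genes, 20 had a change below 0 at 72 h. The 3 KO arrays did not overlap the 3 WT arrays for 6 genes at 0 h, 4 at 4 h, 13 at 24 h and 11 at 72 h, 10 of the last being lower in KO, beside 16.9%, 16.2%, 27.2% and 24.6% of all genes.

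Only 1 of the 28 genes, Eda2r, had a mean level below 3.24, the 40th percentile of all genes, and the share of genes called depends on that level. In a separate fit of the 13308 genes above it, adjusted over these genes alone, 4.52%, 7.52%, 21.6% and 11.6% passed at 0, 4, 24 and 72 h. Of the 28 genes 0%, 7.14%, 28.6% and 21.4% passed in the main fit, so that the shares at 4 and 24 h are near this background. The cuts are not alike, since the separate fit calls more genes between genotypes, and in it Plk2 at 4 h and Pidd1 at 24 h passed as well. All shares below of genes above the level of 3.24 are from the separate fit. B cell markers moved with genotype as well, with 11, 11, 11 and 10 of 11 changes above 0 at 0, 4, 24 and 72 h. Of 8 myeloid markers, 3 were past the threshold and higher in KO at 0 and at 4 h, beside 1.76% and 3.3% of all genes. At 0 h, 3 of the 8 were below WT. With the gene table quantile-normalized again, 1150 genes were higher and 1009 lower at 24 h in place of 865 and 1636, while the p53 target genes stayed at 5 higher and 3 lower. At 4 h that step left Sesn1 higher and brought in Plk2 as lower. Of the 28 genes, 16 were past the threshold at no time, 9 at 1 time, Fas and Plk2 at 2 times and Sesn1 at 3 times.

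**Figure D1:**
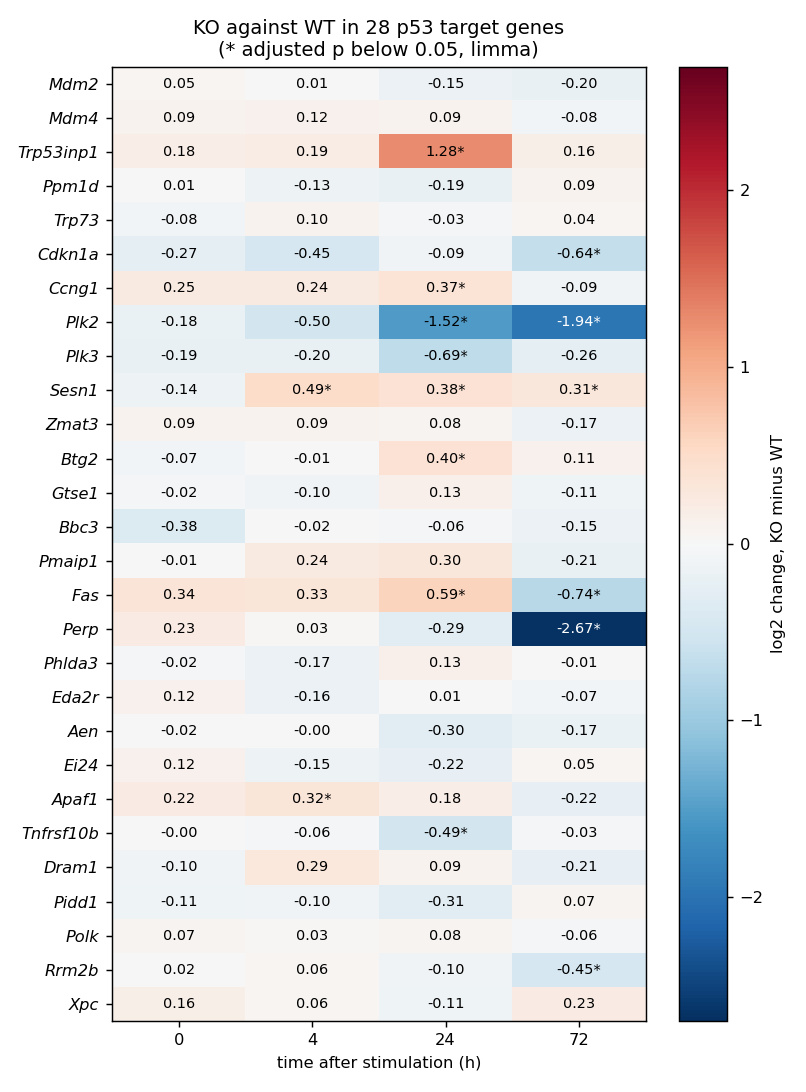
Change in log2 level, KO minus WT, of the 28 p53 target genes (rows) at 0, 4, 24 and 72 h after stimulation (columns), each from 3 KO and 3 WT arrays, red for higher and blue for lower in KO, with an asterisk for an adjusted p below 0.05 in limma. The deepest cells are Perp at 72 h (-2.67) and Plk2 at 24 and 72 h (-1.52 and -1.94), and the highest is Trp53inp1 at 24 h (1.28).

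Of the 5 measured genes of the list that act on p53 or belong to its family, Trp53inp1 was the sole one past the threshold between genotypes. Its product, a stress-induced nuclear protein, brings kinases to p53. At 24 h the Trp53inp1 level was 7.40, 7.27 and 7.11 in the WT arrays and 8.69, 8.49 and 8.46 in the KO arrays. All KO arrays were higher, without overlap, and the change was 1.28 ± 0.08 (SE; adjusted p = 2.87e-11). At 72 h the WT arrays had 8.16, 8.004 and 8.10 and the KO arrays 8.12, 8.32 and 8.31, which overlapped.

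The difference in Trp53inp1 was thus one of the fall at 24 h. In WT the gene rose by 0.88 at 4 h and was 1.36 below its 0 h level at 24 h, while in KO it rose by 0.89 and was then 0.26 below. Mdm2, the ligase of p53 and the best known of its targets, was 8.17 on average in WT and 8.23 in KO at 0 h, and its changes between genotypes ran from -0.20 to 0.05 over the times. Those of Mdm4, Ppm1d (the phosphatase WIP1, which switches off the damage response) and Trp73 (a relative of p53) ran from -0.19 to 0.12. None of these 4 genes was past the threshold at any time.

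Of the genes of arrest and growth, Cdkn1a, Ccng1, Btg2, Plk2, Plk3 and Sesn1 differed between genotypes at 1 time or more. Cdkn1a encodes p21, the inhibitor of cyclin-dependent kinases through which p53 stops the cycle. At 72 h its level was 9.76, 9.69 and 9.56 in WT and 8.81, 9.21 and 9.06 in KO. All KO arrays were lower, and the change was -0.64 ± 0.15 (SE; adjusted p = 0.00498). At 4 h the KO arrays were also the lower ones, at 7.00, 7.07 and 7.39 against 7.51, 7.70 and 7.60, but this change of -0.45 had an adjusted p of 0.0853. In both genotypes the gene stood near the floor at 0 h, at 4.10, 3.60 and 3.63 in WT and 3.62, 3.59 and 3.32 in KO. The call at 72 h was lost without KO array 1 (-0.54, adjusted p = 0.0547).

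Plk2, a polo-like kinase that acts on centriole duplication and is induced by p53 and by growth signals, was the gene of this group that differed the most. Its level at 24 h was 6.34, 6.29 and 6.19 in WT and 4.37, 5.02 and 4.87 in KO. At 72 h it was 8.69, 8.85 and 8.79 in WT and 6.75, 6.89 and 6.86 in KO. The KO arrays were far below the WT arrays at both times, by -1.52 ± 0.15 (SE; adjusted p = 1.71e-07) and -1.94 ± 0.15 (adjusted p = 1.21e-09). The difference grew from -0.18 at 0 h and -0.50 at 4 h, where the adjusted p was 0.0705.

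Plk3, another stress-responsive polo-like kinase, peaked early in both genotypes. At 24 h the Plk3 level was 8.17, 7.97 and 7.91 in WT and 7.17, 7.37 and 7.44 in KO. All 3 KO arrays were lower (-0.69 ± 0.098, SE; adjusted p = 2.69e-05). At 4 h, the time of the peak, it was 9.32, 9.42 and 9.27 against 9.02, 9.31 and 9.09, and the arrays overlapped.

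Sesn1 went the other way. It encodes sestrin 1, which restrains the growth kinase mTORC1. At 4 h its level was 6.36, 6.31 and 6.41 in WT and 6.88, 6.90 and 6.78 in KO, at 24 h 6.56, 6.66 and 6.47 against 7.04, 6.92 and 6.88, and at 72 h 6.54, 6.61 and 6.36 against 6.69, 7.02 and 6.72. The KO arrays were the higher ones at these 3 times, without overlap, and at 0 h the order was not so, at 7.93, 7.97 and 8.04 in WT and 7.76, 7.80 and 7.97 in KO. The changes were 0.49 ± 0.093 at 4 h (SE; adjusted p = 0.00172), 0.38 at 24 h (adjusted p = 0.0074) and 0.31 at 72 h (adjusted p = 0.0492). The call at 72 h sits at the threshold and was lost under 22 of 31 alternatives, and the one at 24 h was lost without KO array 1 of that time (0.33, adjusted p = 0.0593).

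Btg2, an antiproliferative cofactor of mRNA decay, and Ccng1, which encodes cyclin G1, were also higher in KO at 24 h. The Btg2 level was 7.29, 7.04 and 7.04 in WT and 7.59, 7.42 and 7.55 in KO. Ccng1 was at 9.28, 9.37 and 9.52 in WT and at 9.82, 9.75 and 9.71 in KO. Neither gene's arrays overlapped between the genotypes, and the changes were 0.40 ± 0.082 for Btg2 (SE; adjusted p = 0.00188) and 0.37 ± 0.079 for Ccng1 (adjusted p = 0.00264). Zmat3, an RNA-binding zinc finger protein, and Gtse1, a microtubule protein of the G2 and S phases that counters p53, had changes between -0.17 and 0.13 and were called at no time.

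**Figure D2:**
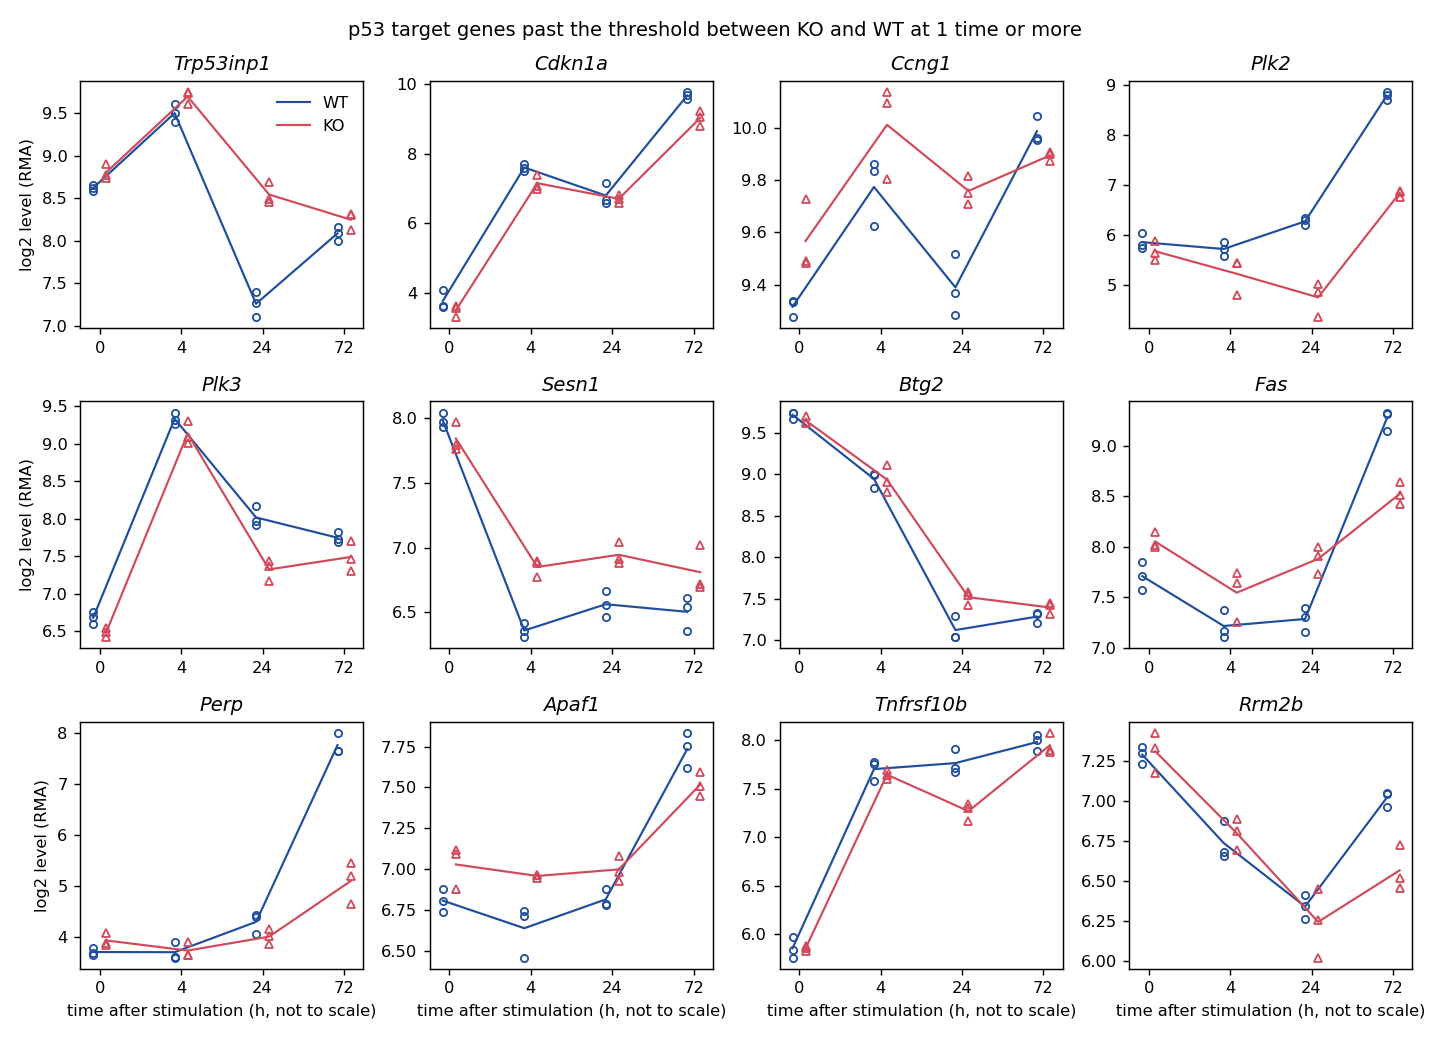
Level of the 12 p53 target genes past the threshold between KO and WT at 1 time or more, in log2 units from RMA, against time after stimulation (0, 4, 24 and 72 h, spaced evenly and not to scale); WT are blue circles and KO red triangles, 1 per array with 3 per group, and lines join the group means. Each panel has its own axis. Plk2 and Perp separate widely at 72 h, Trp53inp1 at 24 h, and the lines of Fas cross between 24 and 72 h.

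Cell death genes held the change of greatest size. Perp, a membrane protein of cell junctions that also acts in p53-dependent death, was at 7.64, 7.99 and 7.63 in WT at 72 h and at 5.19, 5.44 and 4.64 in KO. Every KO array was more than 2 units below every WT array, and the change was -2.67 ± 0.16 (SE; adjusted p = 6.38e-12). At 0 h the gene was near the floor in both, at 3.78, 3.65 and 3.67 in WT and 4.07, 3.87 and 3.84 in KO. RMA compresses low levels, so that a fold taken from them is understated.

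Fas, the death receptor that removes activated T cells, was past the threshold at both late times with opposite signs. Its level at 24 h was 7.40, 7.30 and 7.16 in WT and 7.999, 7.73 and 7.91 in KO. At 72 h it was 9.33, 9.31 and 9.15 in WT and 8.42, 8.51 and 8.64 in KO. The KO arrays were thus all higher at 24 h (0.59 ± 0.11, SE; adjusted p = 0.000584) and all lower at 72 h (-0.74 ± 0.11; adjusted p = 3.27e-05). At 0 h the KO arrays were higher too, at 8.14, 7.99 and 8.02 against 7.85, 7.57 and 7.71, with a change of 0.34 that did not pass (adjusted p = 0.114).

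Tnfrsf10b, the receptor of the death ligand TRAIL, was at 7.90, 7.71 and 7.67 in WT at 24 h and at 7.16, 7.35 and 7.30 in KO. All 3 KO arrays were lower there (-0.49 ± 0.085, SE; adjusted p = 0.000323), whereas the changes at the other times ran from -0.06 to 0. Apaf1, the scaffold of the apoptosome that activates caspases, was at 6.74, 6.71 and 6.46 in WT at 4 h and at 6.95, 6.97 and 6.96 in KO. It was higher in every KO array (0.32 ± 0.088, SE; adjusted p = 0.0358), a call that was lost without WT array 3 of that time (0.23, adjusted p = 0.18) and in 6 other alternatives.

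The further 8 death genes were past the threshold at no time. They are Bbc3 and Pmaip1, which encode the BH3-only proteins PUMA and NOXA, Pidd1, the scaffold of the PIDDosome, Aen, an apoptosis-enhancing nuclease, Phlda3, which keeps AKT from the membrane, Ei24 and Dram1, which act in autophagy, and Eda2r, a receptor of ectodysplasin. Their changes ran from -0.38 (Bbc3 at 0 h) to 0.30 (Pmaip1 at 24 h). Bbc3 at 0 h was 4.01, 3.31 and 4.05 in WT and 3.19, 3.36 and 3.70 in KO. WT array 2 stood apart from its group, and without it the change was -0.62 (adjusted p = 0.0124). Eda2r lay between 2.65 and 3.25 in the arrays at 0 h, near the floor of the table.

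DNA repair and nucleotide supply were measured with 3 genes. Rrm2b, the p53-induced subunit of ribonucleotide reductase, was at 7.05, 6.96 and 7.04 in WT at 72 h and at 6.52, 6.72 and 6.45 in KO. Every KO array was lower (-0.45 ± 0.10, SE; adjusted p = 0.00505). Polk, a polymerase that copies past damaged bases, had changes between -0.06 and 0.08, and Xpc, which recognises damage in nucleotide excision repair, between -0.11 and 0.23, with none past the threshold.

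Stimulation itself moved most of the genes in both genotypes, at 4 and 24 h in a share near that of other genes of their level. In WT, 11 rose and 6 fell at 4 h (17 of 28, against 34.7% of all genes, 16.8% up and 17.8% down), 12 rose and 7 fell at 24 h (19, against 39.7%, 23.2% up and 16.5% down), and 17 rose and 6 fell at 72 h (23, against 40.5%, 22.2% up and 18.3% down). In KO the counts were 10 and 7 at 4 h (17, against 31.1% of all genes, 15.1% up and 16.0% down), 10 and 8 at 24 h (18, against 34.0%, 17.6% up and 16.5% down) and 17 and 6 at 72 h (23, against 39.7%, 21.1% up and 18.6% down). Among genes above the level of 3.24 the shares were 55.1%, 61.8% and 63.5% in WT and 51.5%, 55.4% and 62.0% in KO, beside 60.7%, 67.9% and 82.1% of the 28 genes in WT and 60.7%, 64.3% and 82.1% in KO. The median change of the 28 genes in WT was 0.096, 0.13 and 0.83 at the 3 times, and in KO 0.15, 0.11 and 0.52, beside medians of all genes between -0.012 and 0.042. With quantile normalization again, the split of the 28 genes in WT was 13 up and 5 down at 4 h and 10 up and 9 down at 24 h, and at 72 h it stayed at 17 and 6.

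Taking for each gene its largest change, the 6 largest responses in WT were those of Cdkn1a, Perp, Gtse1 and Plk2 at 72 h, Plk3 at 4 h and Btg2 at 24 h. Cdkn1a rose by 5.89 ± 0.15 (SE) to the 72 h levels given above (adjusted p = 3.76e-21), after 3.83 at 4 h and 3.02 at 24 h, and in KO it rose by 3.64, 3.20 and 5.52. Perp rose by 4.06 ± 0.16 at 72 h in WT (adjusted p = 2.94e-17) and by 1.16 in KO. Gtse1 was at 4.67, 4.48 and 4.89 in WT at 0 h and at 8.08, 8.26 and 8.09 at 72 h. Its rise of 3.46 ± 0.16 (adjusted p = 1.19e-15) was matched by one of 3.37 in KO, with levels of 8.10, 8.06 and 7.93.

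Plk2 at 0 h was 6.04, 5.80 and 5.74 in WT and 5.88, 5.65 and 5.50 in KO, overlapping. It rose in WT by 2.92 ± 0.15 at 72 h (adjusted p = 8.91e-15) and in KO by 1.16. At 24 h it was the 1 gene called with opposite signs, with a change of 0.42 in WT (adjusted p = 0.0323) and of -0.92 in KO (adjusted p = 1.80e-05). Plk3 began at 6.76, 6.59 and 6.68 in WT and rose by 2.66 ± 0.098 at 4 h (adjusted p = 2.80e-17), and in KO by 2.65. Btg2 began at 9.74, 9.67 and 9.74 in WT and fell to the 24 h levels above, a change of -2.60 ± 0.082 (adjusted p = 5.71e-19), and of -2.13 in KO.

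Of the other genes, Tnfrsf10b, Aen, Polk, Zmat3 and Phlda3 rose in WT at all 3 times, as did Ei24, by 0.43 to 2.12. Mdm4, Sesn1 and Rrm2b fell at all 3 times, with changes between -1.62 (Sesn1 at 4 h) and -0.27 (Rrm2b at 72 h). Pmaip1 rose at 72 h alone, by 1.55, and Pidd1 at 24 and 72 h, by 2.08 and 1.27. Mdm2 rose in WT at 72 h (0.45, adjusted p = 0.00025) and was called in KO at 24 h instead, as lower (-0.44). Eda2r, Ppm1d and Trp73 passed at no time in either genotype. The calls of both genotypes pointed the same way for 15 genes at 4 h, 15 at 24 h and 22 at 72 h.

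Whether the response of KO cells differed from that of WT cells (the interaction) was tested in the same fit. It draws on the same arrays as the comparisons above and is no further evidence for them. At 4 h it was past the threshold for Sesn1 alone (0.63), whose change was -1.62 in WT and -0.99 in KO. This is 1 of 28, against 0.726% of all genes (0.446% higher and 0.28% lower in KO) and 1.55% of those above the level of 3.24. Without WT array 3 or KO array 1 of 0 h this call was lost. At 24 h, 6 of 28 passed (against 5.87% of all genes, 1.65% higher and 4.22% lower, and 12.4% of those above the level of 3.24). Plk2 (-1.34), Plk3 (-0.50) and Tnfrsf10b (-0.49) responded less or fell in KO, and Trp53inp1 (1.10), Sesn1 (0.52) and Btg2 (0.46) fell less in KO. Without KO array 1 of 24 h, Plk2 and Trp53inp1 alone passed, 2 of 28. At 72 h, 4 of 28 passed (against 3.91%, 1.06% higher and 2.86% lower, and 7.54%), all lower in KO, namely Perp (-2.90), Plk2 (-1.76), Fas (-1.08) and Apaf1 (-0.44), the last of which was lost under 14 of 31 alternatives. With quantile normalization again, no gene passed at 4 h, 3 higher and 1 lower passed at 24 h and 1 higher and 3 lower at 72 h, and over all genes the split at 24 h went from 367 higher and 935 lower to 594 and 382.

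**Figure D3:**
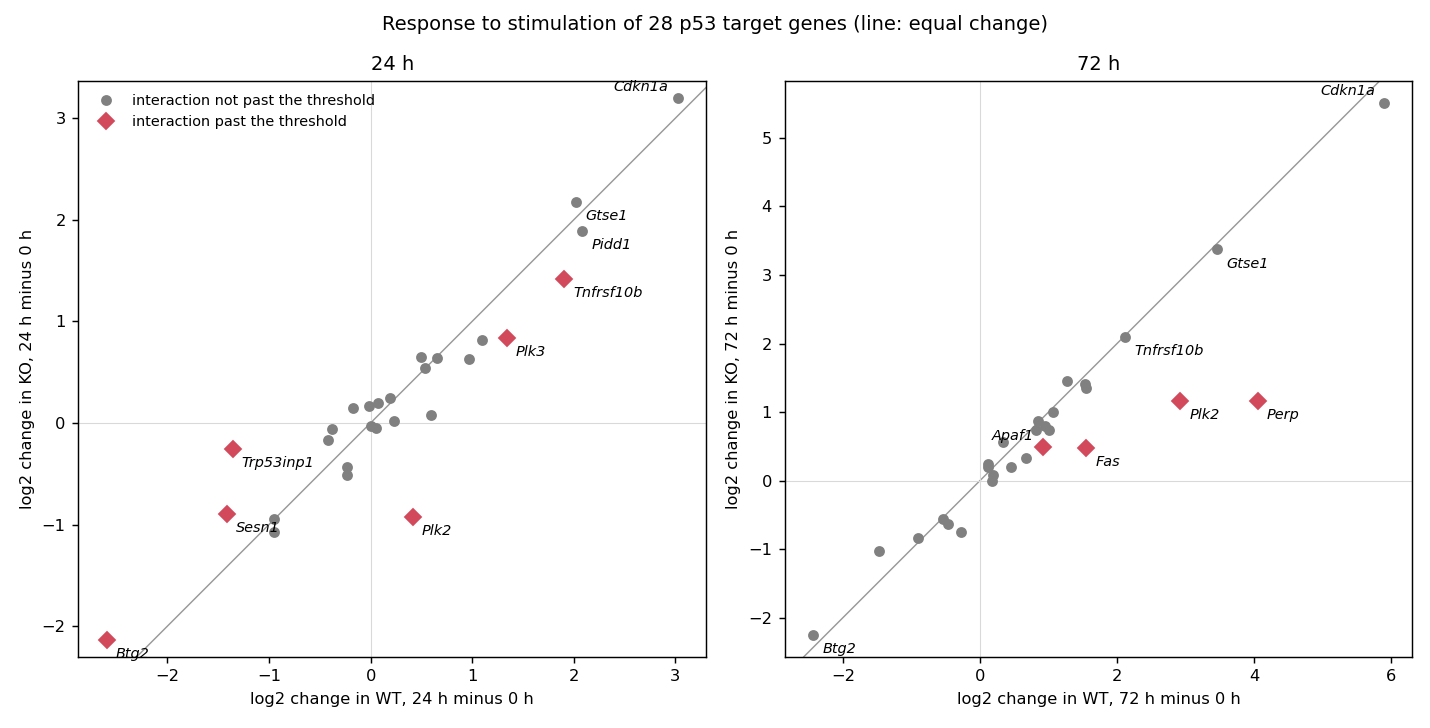
Change from 0 h in KO (vertical axis) against that in WT (horizontal axis), in log2 units, for the 28 p53 target genes at 24 h (left) and 72 h (right), with a line of equal change; red diamonds are genes whose interaction passed an adjusted p of 0.05. Both axes share the 0 h arrays of their genotype. Cdkn1a and Gtse1 lie near the line at both times, whereas Perp (4.06 in WT, 1.16 in KO) and Plk2 (2.92 and 1.16) lie below it at 72 h.

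Because Fas changed sign between 24 and 72 h, the change from 24 to 72 h was also compared between genotypes, a contrast chosen after those values were seen. It passed for 7 of 28 genes, against 8.46% of all genes (4.9% higher, 3.56% lower) and 16.6% of those above the level of 3.24. Fas gained less in KO than in WT (-1.34 ± 0.15, SE; adjusted p = 1.81e-06), and so did Perp (-2.38), Ccng1 (-0.46) and Apaf1 (-0.40). Trp53inp1 (-1.12) went on average from 7.26 to 8.09 in WT and from 8.54 to 8.25 in KO. Tnfrsf10b gained more in KO (0.46), and Plk3 (0.44) went from 8.02 to 7.75 in WT and from 7.32 to 7.49 in KO. The Plk3 difference (adjusted p = 0.0496) was lost under 24 of 31 alternatives and that of Apaf1 under 10. Without KO array 1 of 24 h, Fas, Perp, Trp53inp1 and Ccng1 passed, 4 of 28.

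Genes around p53 that are not among the 32 were given by 3 further lists, chosen like the 32 with earlier results of these data known. Of 22 regulators and partners of p53, which include Trim28, Trim28 alone passed between genotypes at 0 and 4 h. At 24 h, Atr, a kinase of the replication stress response, and Kat5, an acetyltransferase, fell (-0.38 and -0.29), and Ppp1r13b, which encodes the p53 partner ASPP1, rose (0.36). At 72 h, Atm, the kinase that signals DNA breaks to p53, was 7.75 on average in KO and 8.48 in WT (-0.73 ± 0.078, SE; adjusted p = 2.21e-07), and Daxx, a partner of MDM2, was 7.77 and 8.42 (-0.65; adjusted p = 2.63e-05). Ppp1r13l, an inhibitor of p53, rose by 0.49. With Trim28, the gene knocked out, these were 4 of 22 at either time (18.2%), and without it 3 genes, beside 21.6% and 11.6% of genes above the level of 3.24. Kat5 and Ppp1r13l were named after their values were seen.

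Of 24 further p53 targets measured, 0 passed at 0 h (3 had an unadjusted p below 0.05), against 2.34% of all genes. At 4 h 1 passed (Abhd4, a lipase, 0.54), against 4.13%. At 24 h, Ephx1, an epoxide hydrolase, rose by 0.85 (adjusted p = 2.59e-06) while Polh, a polymerase that copies past ultraviolet lesions, and Fbxo22, a ubiquitin ligase subunit, fell (-0.30 and -0.32). At 72 h, Pml, the scaffold of nuclear bodies (-0.61), Ascc3, a helicase (-0.53), and Slc12a4, an ion cotransporter (-0.49), fell and Ephx1, which the rule would not have named at this time, rose by 0.45. These counts of 3 and 4 of 24 are 12.5% and 16.7%, beside 11.3% and 6.33% of all genes. Of genes above the level filter, 21.6% and 11.6% passed at these times in the separate fit. Most of the 24 lie above that filter, though not all. Cell cycle genes that are repressed downstream of p53 and p21 rose with stimulation in both genotypes, 14 of 14 measured at 24 h and at 72 h. Of all genes, 23.2% and 22.2% rose in WT at these times and 17.6% and 21.1% in KO. The median rise of the 14 was 2.82 and 4.40 in WT and 2.62 and 4.71 in KO. Between genotypes, Mki67, a marker of cycling cells, was higher in KO at 0 and 4 h (0.54 and 0.46). Cdk1, the kinase of entry into mitosis, and Ccna2, cyclin A2, were lower at 24 h (-0.68 and -0.53). All 14 changes were below 0 at that time, and 6 had an unadjusted p below 0.05. At 72 h, 0 of 14 passed in limma, 2 had an unadjusted p below 0.05 and 13 of the 14 changes were above 0. The shares of the 14 past the threshold were 7.14%, 7.14%, 14.3% and 0% at 0, 4, 24 and 72 h. Those of all genes were 2.34%, 4.13%, 11.3% and 6.33%. Those of genes above the level filter, from the separate fit, were 4.52%, 7.52%, 21.6% and 11.6%.

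Markers of other cells moved with genotype. The summed level of 11 B cell markers lay at 7.57 to 8.62 in WT and 8.34 to 9.11 in KO at 0 h, at 7.31 to 7.77 against 7.97 to 8.89 at 24 h and at 7.19 to 7.32 against 7.50 to 8.37 at 72 h. At 0, 4, 24 and 72 h, 2, 0, 3 and 1 of the 11 were past the threshold and higher, beside 1.76%, 3.3%, 3.9% and 2.56% of all genes. Cd79a, which defines B cells, fell from 6.30 to 7.20 in the KO arrays at 0 h to 3.96 to 5.46 at 72 h. The 8 myeloid markers were S100a8, S100a9, Lyz2, Itgam, Csf1r, Cd14, Fcgr3 and Cybb. Of these 3 were past the threshold and higher in KO at 0 h and 3 at 4 h, beside 1.76% and 3.3% of all genes. The sums of the 8 were 6.88 to 8.12 in KO against 6.43 to 6.74 in WT at 0 h. At 0 h Itgam, Csf1r and Fcgr3 were lower in KO on average (4.25, 3.28 and 3.29 against 4.34, 3.31 and 3.47). None were called at 24 or 72 h (sums at 72 h of 6.06 to 6.32 against 6.02 to 6.30). Of 3 natural killer markers only Eomes, which activated T cells also express, was lower in KO, at 24 h (3.79 against 4.71 on average) and at 72 h (4.01 against 7.17), while Ncr1 and Klrb1c stayed between 1.71 and 3.94 in all arrays. Of the CD8 markers Cd8a and Cd8b1, Cd8b1 was lower in KO at 24 h (-0.41) and 72 h (-0.65). In bulk RNA, fewer cells of a type and less RNA per cell cannot be told apart.

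**Figure D4:**
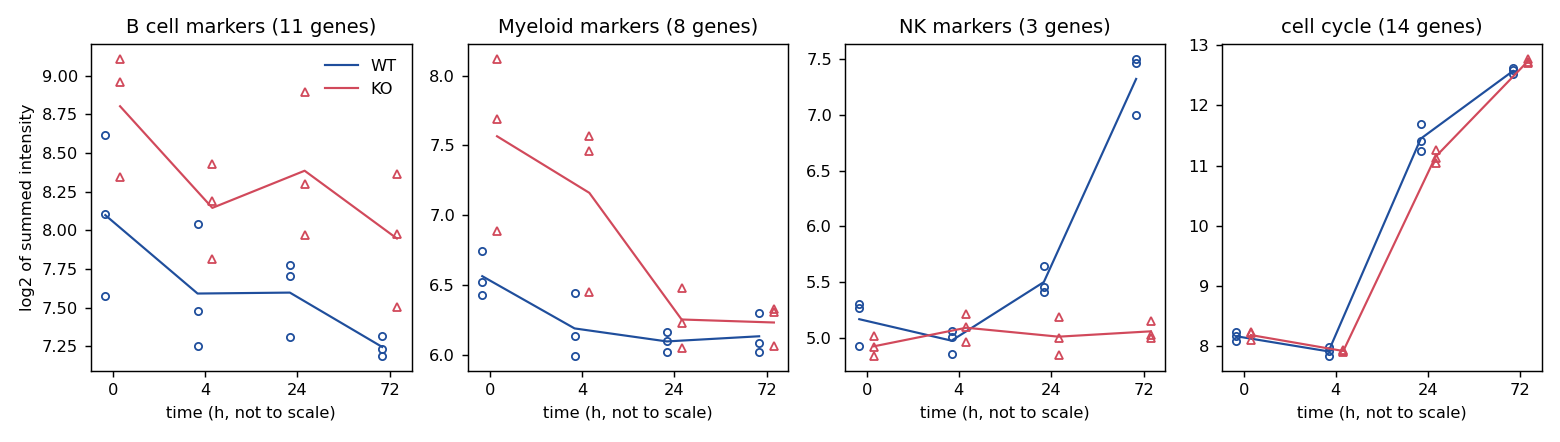
Summed level of the markers of B cells (11 genes), myeloid cells (8) and natural killer (NK) cells (3) and of 14 cell cycle genes, as log2 of the summed intensities, against time after stimulation (0, 4, 24 and 72 h, spaced evenly and not to scale); WT are blue circles and KO red triangles, 1 per array with 3 per group, and lines join the group means. The B cell sum is higher in KO on average, the myeloid sum at 0 and 4 h, and the NK sum rises in WT at 72 h with Eomes.

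Among the KO arrays of each time, array 2 had the lowest sum of B cell markers and of myeloid markers. When array 2 was kept alone for KO at each time, its spread taken from the other groups, Trp53inp1, Plk2 and Plk3 were past the threshold at 24 h and Fas, Perp, Plk2 and Sesn1 at 72 h. With all other arrays kept, the Sesn1 call at 72 h was lost without KO array 2 of that time (0.20, adjusted p = 0.349). It was lost in the same way without WT array 3 of that time (0.23, adjusted p = 0.307). The B cell sum of array 2 was still above all WT arrays at 24 h (7.97 against at most 7.77) and at 72 h (7.50 against at most 7.32). Over all 31 alternatives the change of Perp at 72 h was -2.84 to -2.32, that of Plk2 at 72 h -1.99 to -1.89 and that of Trp53inp1 at 24 h 1.21 to 1.39. In that setting Cdkn1a at 72 h (-0.46, adjusted p = 0.506), Rrm2b at 72 h (-0.30, adjusted p = 0.449), Fas at 24 h (0.45, adjusted p = 0.107) and Tnfrsf10b at 24 h (-0.42, adjusted p = 0.123) were not past the threshold, with 1 array in place of 3, and their directions were the same. The part of other cells in these changes was not tested.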

How the data were processed

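The authors deposited 1 table of log2 values for 41345 probe sets on 24 arrays, produced by RMA with oligo and R 3.1.0, per the submitters' processing notes. Because RMA brings arrays to a common distribution after background correction, a shift of all genes together cannot be seen in it, and low levels are compressed. The table has no detection calls, and no batch or date was given in the sources used here. Arrays were grouped by the sample titles. The highest correlation between 2 arrays was 0.992, and 0 columns were identical.

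Of the 25335 probe sets in the platform annotation, 23521 have 1 gene symbol and 1814 several, and 16010 further ones have none listed. By Entrez ID, 23328 were matched to RefSeq names (GRCm38.p6). The probe set with the highest mean was used for each of 22180 genes. A model of 8 group means over all 24 arrays was fitted with limma 3.58.1 in R 4.3.3 (lmFit, eBayes with trend, 16 residual and 8.81 prior degrees of freedom), two-sided, with Benjamini-Hochberg adjustment over all genes and a threshold of 0.05. The fit was tested on simulated data. The replicate numbers of the titles were not used in it. Same-numbered arrays deviated together in all 3 pairs (correlation over 0.1) for KO at 0 and 24 h alone among the comparisons checked. By the sum of B cell markers, however, the arrays kept their order at every time. In KO, array 1 was the highest and array 2 the lowest, and in WT array 3 was the highest and array 2 the lowest. The sources used here do not say whether same-numbered arrays share an animal, and this was not tested. Changes over time and interactions were fitted as unpaired. Summed marker levels are log2 of summed intensities.

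The members and gene lists were chosen with earlier results of these data known. By the rule for named genes, every member past the threshold between genotypes is given in every array at that time, as are the 6 largest WT responses, every interaction past the threshold is named, and up to 3 genes per comparison are named from each further list. The alternatives were averaging the probe sets of a gene, a filter at the 40th percentile of mean level (3.24), quantile normalization again, only the groups compared in the fit, a replicate block, genotype and number as a random block, the KO arrays reduced to number 2, and leaving out each of the 24 arrays. The number of arrays limits the precision.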

Additional observations from a re-analysis of the deposited data

Results flagged for a closer look

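In all, 18 differences between the KO and WT responses, each tested in the fit, stood out. From 0 to 4 h the response of Sesn1 differed by 0.63. From 0 to 24 h the responses of Plk2 (-1.34), Plk3 (-0.50), Tnfrsf10b (-0.49), Sesn1 (0.52), Trp53inp1 (1.10) and Btg2 (0.46) differed. From 0 to 72 h those of Perp (-2.90), Plk2 (-1.76), Fas (-1.08) and Apaf1 (-0.44) did.

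From 24 to 72 h, a contrast chosen after the values were seen, the changes of Fas (-1.34), Perp (-2.38), Trp53inp1 (-1.12), Ccng1 (-0.46), Apaf1 (-0.40), Plk3 (0.44) and Tnfrsf10b (0.46) differed. The Plk3 difference was lost under 24 of 31 alternatives. Their causes were not tested.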

How the results depend on the processing

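The counts and named changes of the p53 target genes were recomputed under 31 alternatives, 24 of which leave out 1 array. Of 40 changes named by the rule, 20 were past the threshold under every alternative, 20 lost it under 1 or more, and 0 reversed. Those past it throughout included Perp and Fas at 72 h, Plk2 at 24 and 72 h, and Trp53inp1 and Plk3 at 24 h, all KO against WT.

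With the KO arrays reduced to number 2, each time has 1 KO array. Fewer p53 target genes, and fewer of all genes, then passed between KO and WT at 4, 24 and 72 h and in every interaction. With only the groups compared in the fit, the count between KO and WT at 4 h was 1, while that of all genes went from 917 to 309. With quantile normalization again, the interaction count at 4 h was 0, while that of all genes went from 161 to 137, and the cause was not tested.

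Leaving out 1 array gave counts between KO and WT of 0 to 1 at 0 h and 1 to 4 at 4 h, and interaction counts of 0 to 1 at 4 h, 2 to 6 at 24 h and 4 to 7 between 24 and 72 h. KO array 1 of 24 h gave the lowest of the last 2 ranges. The counts of all genes under each left-out array are not given here. At 4 h the count was 1 without WT array 3 or KO array 1, and 4 without KO array 3, which brought in Ccng1, Cdkn1a and Plk2. At 0 h, Bbc3 passed without WT array 2. The interaction of Sesn1 at 4 h was lost without WT array 3 or KO array 1 of 0 h.

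By the deviations of same-numbered arrays from their group means, which correlated at 0.032 to 0.17 between WT and KO (over 0.1 in 6 of 12 pairs), the numbers 1 to 3 were not taken to pair the genotypes. Against 0 h they were over 0.1 in 4 of 9 pairs in WT and 5 of 9 in KO, including all 3 at 24 h in KO, where the count was 18 with and without the replicate block. With the replicate block the counts between KO and WT were 0, 3, 8 and 5 at 0, 4, 24 and 72 h in place of 0, 2, 8 and 6. Those of all genes were 567, 966, 2588 and 1426 in place of 518, 917, 2501 and 1405. Fas at 4 h was gained (0.33, adjusted p = 0.0471) and Sesn1 at 72 h lost (0.31, adjusted p = 0.0526). Without detection calls, a fall of genes near the floor, such as Eda2r, cannot be seen.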
